A study of Curvularia clavata with 15 samples.

Results

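A set of 70 genes of the filamentous fungus Curvularia clavata, out of 10170 gene IDs measured, had more mRNA in the ΔCclaeA mutant and less in the Δtah-1 mutant than in the wild type (WT) when all 3 strains grew on lignosulfonate. The set was chosen by these very values. Each FPKM value (fragments per kilobase of transcript, scaled to the mapped fragments of its library) was divided by a size factor of its library, the 3 libraries of a group were averaged, and log2(mean + 1) was taken. A gene was a member if this level was at least 1 log2 unit above WT in ΔCclaeA and at least 1 log2 unit below WT in Δtah-1. Genes with at least 10 FPKM in all 3 WT libraries of one medium and under 1 FPKM in all 3 of the other were left out, which removed 7 of the 77 genes that met both limits. Levels in the Δrpn-4 mutant played no part in the choice.

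RNA came from mycelia of strain J1 after 4 days of shaken culture, with 5 groups of 3 libraries. One WT group had 2% glucose as its medium's carbon source and the other 2% lignosulfonate plus 0.25% glucose. All mutant groups, which lack CclaeA, rpn-4 or tah-1, had the latter medium. Cultures of 100 mL were kept at 30 °C and 200 rpm. The sources used here do not say how the mutants were made, how many isolates stand behind each, or whether the 3 samples of a group were separate cultures, so that p-values measure the spread between samples, which may be technical.

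Lignosulfonate is a water-soluble, sulfonated form of lignin, the aromatic polymer of plant cell walls, and fungi attack lignin with secreted oxidative enzymes such as laccases and peroxidases. LaeA proteins, best known from Aspergillus, are nuclear methyltransferase-like regulators that act with velvet proteins on secondary metabolism and development, and their loss lowers some gene clusters and raises others. Rpn4 of budding yeast is a short-lived transcription factor that activates proteasome genes. The files pair no ID with a gene name, so the members are described by ID, the function of none of them is stated, and whether each mutant lacked its deleted transcript was not checked.

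The 15 libraries had FPKM sums between 662880 and 1186753. Relative sequencing depth, read from the steps between the lowest values, ran from 0.707 to 1.16, and read numbers are unknown. The size factors were between 0.683 and 0.696 in Δrpn-4 and between 1.08 and 1.303 in WT and ΔCclaeA, so that unscaled FPKM of most genes are lower in Δrpn-4. In Δtah-1 they were 0.807, 1.21 and 0.870, and replicate 2 stands apart from the other libraries of its group. All 70 members passed the filter of at least 1 FPKM in at least 3 libraries, as did 9265 of all IDs. The headers of the WT files name FPKM and those of the mutant files name no unit, and a difference in processing between them cannot be told apart from genotype.

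**Figure D1:**
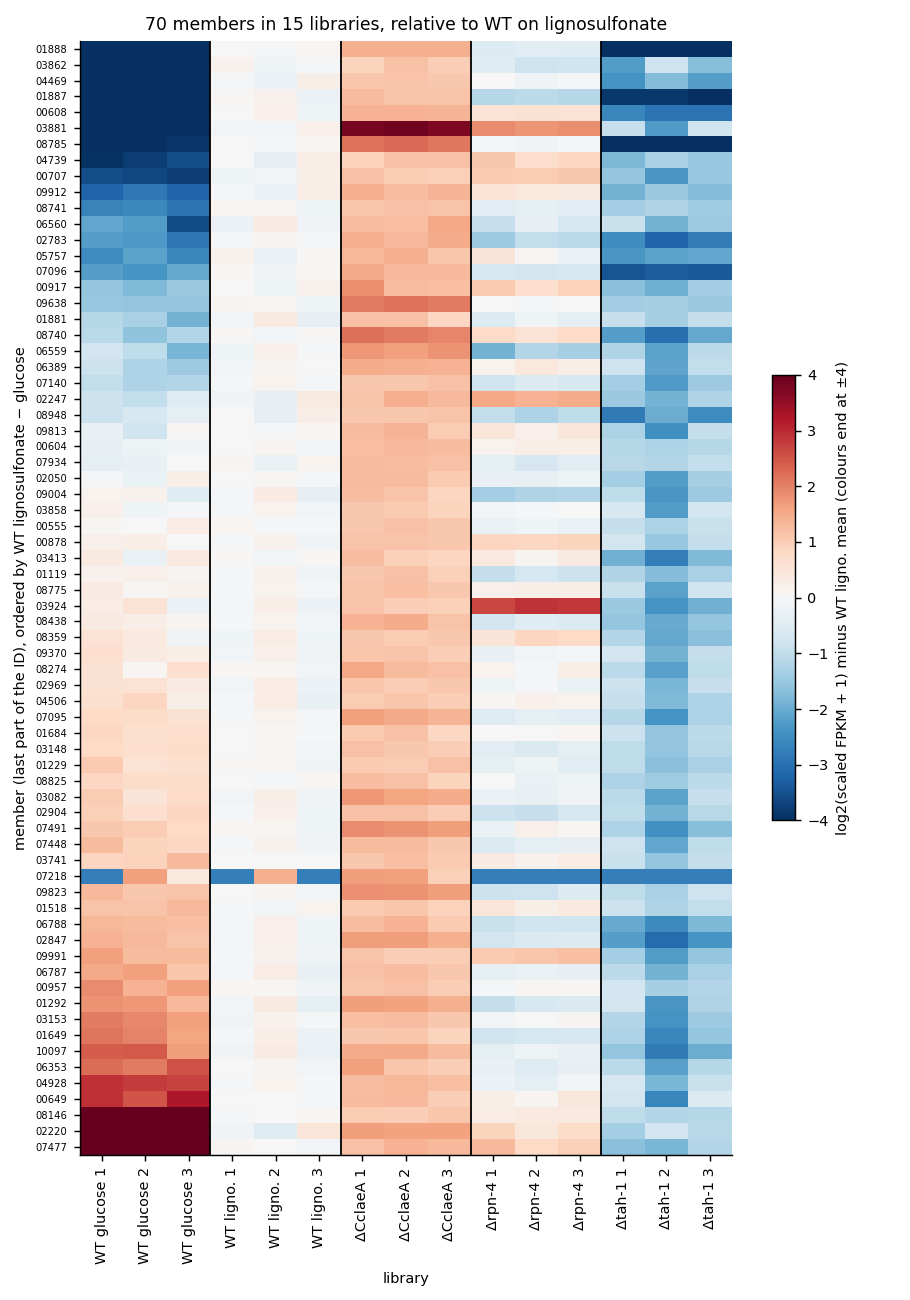
Each row is one of the 70 members and each column one of the 15 libraries. Colour gives log2(scaled FPKM + 1) minus the mean level of WT on lignosulfonate, and rows run from the member most raised on lignosulfonate to the one most raised on glucose. The ΔCclaeA columns are red and the Δtah-1 columns blue because the members were selected on those values, whereas the glucose and Δrpn-4 columns hold both colours.

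The levels that defined the set are given first, as a description. Over the 70 members the median scaled FPKM was 50.8 in WT on lignosulfonate, 109.5 in ΔCclaeA and 16.6 in Δtah-1, against medians of 30.7, 31.2 and 31.2 over all tested IDs. FPKM are shares of a library's RNA, so that less of a transcript per cell and fewer cells that hold it cannot be told apart. The ΔCclaeA level lay 1.00 to 3.79 log2 units above WT, with a median of 1.19, and 4 members exceeded 2 units. The Δtah-1 level minus the WT level ran from -6.81 to -1.01 log2 units, with a median of -1.40, and 15 members were at least 2 units lower. Of all tested IDs, 4.49% met the ΔCclaeA limit and 8.54% met the Δtah-1 limit. All 3 ΔCclaeA libraries were above all 3 WT libraries in 69 of the 70 members, a pattern that 31.3% of tested IDs showed. All 3 Δtah-1 libraries were below all 3 WT libraries in 69 members, as in 29.9% of tested IDs.

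The exception in both counts was yc1106_07218. It was listed at 0, 16.8 and 0 scaled FPKM in WT on lignosulfonate, at 0, 19.6 and 7.91 on glucose, and at 19.8, 19.4 and 11.7 in ΔCclaeA. All 3 Δtah-1 and all 3 Δrpn-4 libraries listed it at 0. It no longer met the limits when any 1 of the 3 WT lignosulfonate libraries was left out. It is still counted among the members at least 2 log2 units lower in Δtah-1 (-2.72), though only 1 WT lignosulfonate library listed it above 0.

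Members near the limits differed little from genes just outside. yc1106_03858 was the closest inside on the ΔCclaeA side, with a difference of 1.00 log2 units, and yc1106_07560 the closest outside, with 0.998 and a Δtah-1 difference of -1.41. On the Δtah-1 side yc1106_01518 was the closest inside with -1.01, and yc1106_07359 the closest outside with -0.999, beside a ΔCclaeA difference of 1.44. Next in order came yc1106_03862 (1.02) and yc1106_00555 (-1.03) inside, and yc1106_07097 (0.98) and yc1106_01540 (-0.999) outside.

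The 4 members with the largest differences in both mutants, ranked by the smaller of the 2, were yc1106_08785, yc1106_08740, yc1106_07491 and yc1106_02847. yc1106_08785 had 129, 125 and 138 scaled FPKM in WT on lignosulfonate, 598, 632 and 573 in ΔCclaeA and 2.28, 2.96 and 2.73 in Δtah-1. In Δrpn-4 it had 124.5, 119.6 and 123, and in WT on glucose 6.63, 6.50 and 7.81. The Δrpn-4 libraries lay just below those of WT (not called, log2 change -0.09), and the Δtah-1 libraries lay below all others, glucose included.

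yc1106_08740 had 202, 181 and 201 scaled FPKM in WT on lignosulfonate, 908, 820 and 757 in ΔCclaeA and 41.5, 23.4 and 46.7 in Δtah-1. Its Δrpn-4 libraries, at 335, 293 and 335, lay between WT and ΔCclaeA without overlap, and its glucose libraries, at 92.0, 63.8 and 86.2, between Δtah-1 and WT. yc1106_07491 and yc1106_02847 had higher levels on glucose than on lignosulfonate. The log2(scaled FPKM + 1) change of the former, at -0.97, was just short of a call, and it was called with a pseudocount of 0.1 (-1.03) and without replicate 1 (-1.01) or 2 (-1.02) of WT on lignosulfonate or replicate 3 of WT on glucose (-1.05). yc1106_02847 had 389 ± 33.2 scaled FPKM in WT on glucose (SD, n = 3, as in all groups below), 159 ± 22.4 on lignosulfonate, 482 ± 50.1 in ΔCclaeA and 27.2 ± 8.06 in Δtah-1. The ΔCclaeA libraries, the lowest at 424, all lay above the highest glucose library, at 422. yc1106_07491, a less abundant gene, had 22.9 ± 2.21 on glucose, 11.2 ± 1.28 on lignosulfonate, 41.2 ± 3.06 in ΔCclaeA and 2.72 ± 1.45 in Δtah-1.

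The most abundant members in WT on lignosulfonate were yc1106_01888, yc1106_00707, yc1106_04469 and yc1106_07096. yc1106_01888 had 3585, 3458 and 3872 scaled FPKM in WT, 9840, 9772 and 9799 in ΔCclaeA, 2493, 2647 and 2579 in Δrpn-4, and 24.8, 43.8 and 25.4 in Δtah-1. Its glucose libraries had 3.89, 3.90 and 2.92. No group overlapped another, and the Δtah-1 libraries were far closer to glucose than to lignosulfonate. The WT mean was 116 times the Δtah-1 mean, the largest ratio among the members listed above 0 in Δtah-1.

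yc1106_00707 had 903, 935 and 1185 scaled FPKM in WT on lignosulfonate, 2284, 2028 and 1971 in ΔCclaeA and 342, 200.0 and 348 in Δtah-1. Its Δrpn-4 libraries, at 2091, 2043 and 2150, overlapped those of ΔCclaeA, and its glucose libraries, at 85.3, 79.9 and 73.7, lay below all others. yc1106_04469 had 761, 672 and 939 in WT on lignosulfonate, 1712, 1747 and 1655 in ΔCclaeA, 797, 710.4 and 761 in Δrpn-4 and 149, 238 and 173 in Δtah-1. There the Δrpn-4 libraries lay within the range of WT. yc1106_07096 had 713, 621 and 726 in WT on lignosulfonate, 1957, 1703 and 1686 in ΔCclaeA, 436, 410.4 and 424 in Δrpn-4 and 61.9, 67.2 and 65.9 in Δtah-1. Its glucose libraries, at 148, 134 and 167, lay above those of Δtah-1, in contrast to yc1106_01888 and yc1106_00707.

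Together the members made up 1.61% ± 0.041 of the FPKM sum in WT on lignosulfonate and 1.39% ± 0.132 on glucose. The share was 4.28% ± 0.122 in ΔCclaeA, was 0.843% ± 0.012 in Δrpn-4 and was 0.308% ± 0.032 in Δtah-1. In Δrpn-4 most genes had a lower share, the median log2 change over all tested IDs being -0.9315 on FPKM rescaled to equal sums, whereas on scaled FPKM the members' median change there was -0.15. Different genes carried these sums. yc1106_01888 alone supplied 30.9% of the member sum in WT on lignosulfonate and 31.8% in ΔCclaeA, whereas on glucose yc1106_08146 supplied 44.4%. In Δtah-1 the leading member was yc1106_00707, with 11.95%.

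**Figure D2:**
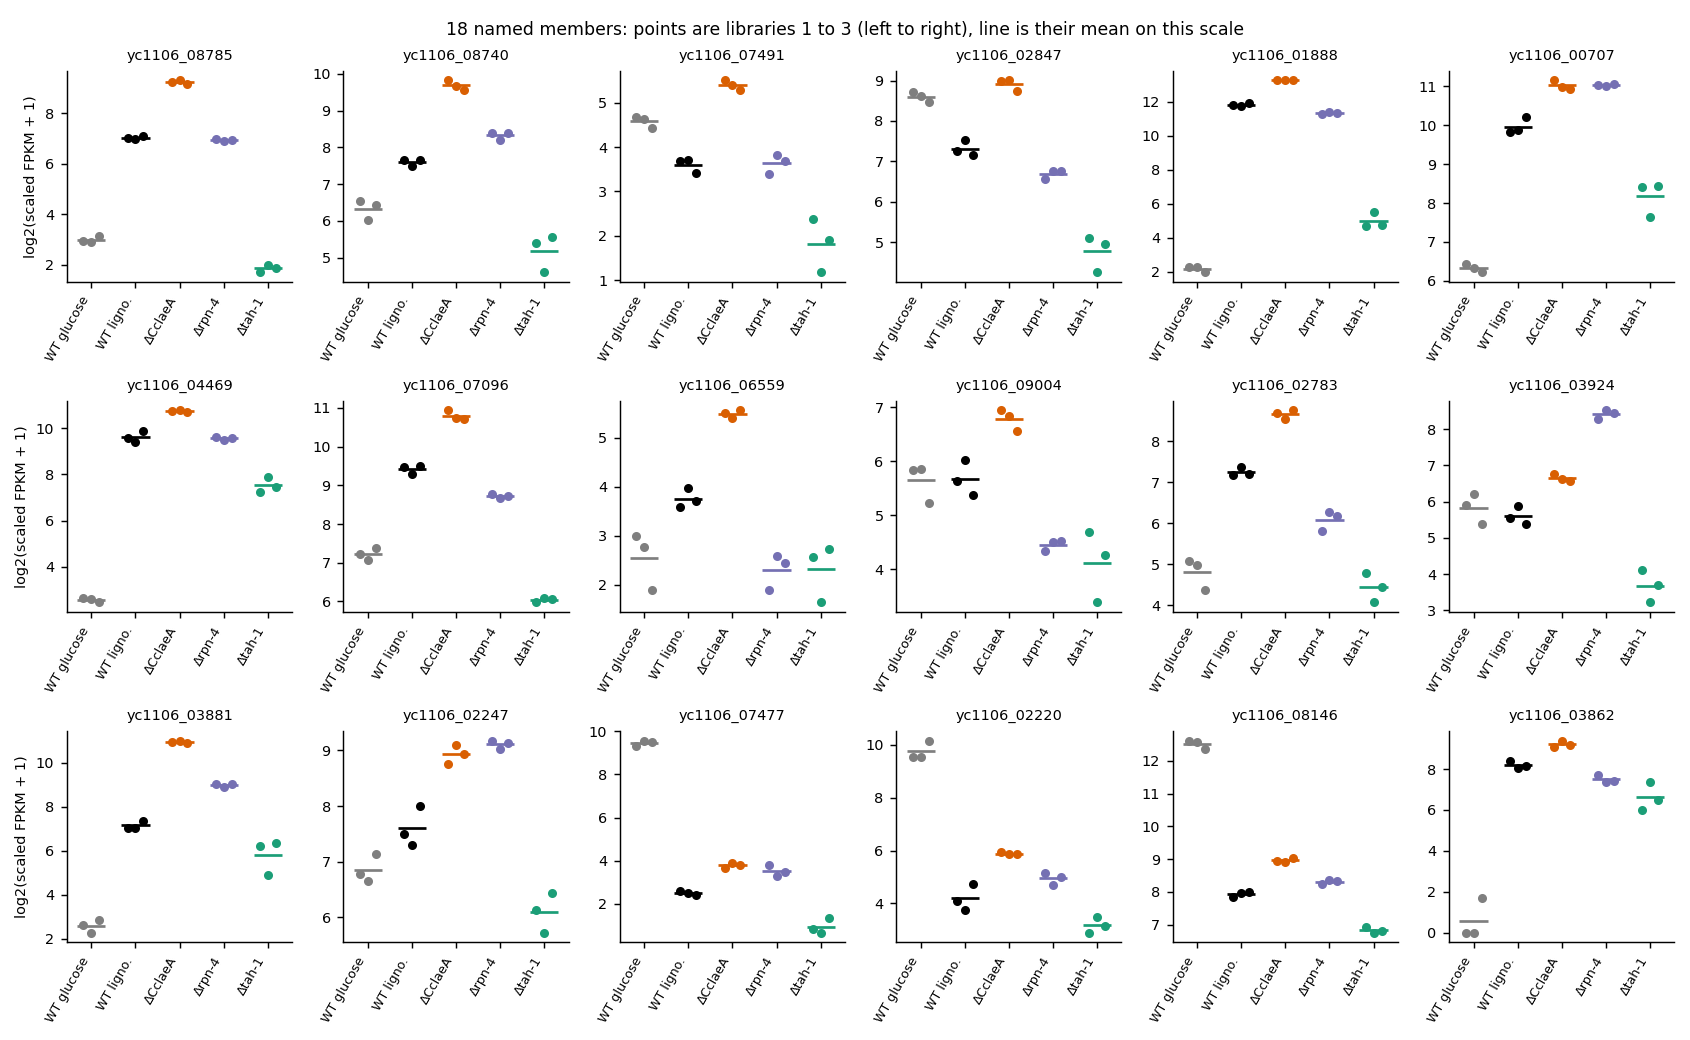
Scaled FPKM of the 18 members named by fixed ranks, as log2(scaled FPKM + 1), with 1 point per library and a line at the group mean on that scale. In yc1106_01888 the Δtah-1 points lie nearer to those of glucose than to those of WT on lignosulfonate, in yc1106_00707 the Δrpn-4 and ΔCclaeA points share a level, and in yc1106_07477 the glucose points lie far above all lignosulfonate libraries.

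The Δtah-1 differences were not even across its libraries. Replicate 2 was the lowest of the 3 in 55 of the 70 members, and in 41.3% of tested IDs. The median member lay 2.07 log2 units below the WT mean in that library, against 1.20 and 1.28 in replicates 1 and 3. With replicate 2 left out the same limits chose 53 genes, of which 51 were among the 70. The 19 members lost had a median difference of -0.91 in the remaining Δtah-1 libraries, and the smallest was -0.64, so they lay below WT there too but short of the limit. The median SD within Δtah-1 was 0.43 log2 units for members and 0.24 for tested IDs, and in ΔCclaeA it was 0.10 for both. The limit on the Δtah-1 mean itself favours genes with a low library there. The member values for replicate 2 and for the Δtah-1 SD are therefore partly set by the choice, unlike those of tested IDs. The ΔCclaeA libraries placed 68, 65 and 49 members past 2-fold above WT, replicate 3 being the lowest.

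Which genes met the limits also depended on the scaling. On unscaled FPKM the same limits chose 96 genes, which shared 46 with the 70, or 65.7% of the set and 47.9% of the other list. On FPKM rescaled to equal sums (TPM) 95 genes were chosen, with all 70 among them. A core of 37 members met the limits whichever 1 of the 9 libraries of WT on lignosulfonate, ΔCclaeA and Δtah-1 was left out, and 33 of these also did so on unscaled FPKM.

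The first contrast outside the choice asked how the members respond to the medium in WT. It shares the WT lignosulfonate libraries with the rule, and the 2 media differ in lignosulfonate and in glucose at once, which cannot be told apart. Of the 70 members, 22 were higher on lignosulfonate than on glucose (31.4%, against 22.7% of all tested IDs) and 18 were lower (25.7%, against 18.1%), where a call needs both a 2-fold change and a limma p, adjusted after Benjamini and Hochberg, under 0.05. The other 30 were not called. All shares of tested IDs in this contrast include the 186 IDs switched between the media. The rule barred such genes from the set, so the shares compared come from unlike sets. Among the 51 members that met the limits without Δtah-1 replicate 2, 19 were higher (37.3%) and 11 lower (21.6%). The median log2 change was -0.20 over the members and 0.00 over all tested IDs. The set, like the tested IDs as a whole, thus held genes with opposite responses to the medium, beside the 7 switched genes that the rule had removed. With no minimum fold change 24 were higher, against 37.1% of tested IDs, and 29 lower, against 36.8%. All 3 lignosulfonate libraries lay above all 3 glucose libraries in 25 members, as in 37.4% of tested IDs, and below them in 30, as in 37.0%. On unscaled FPKM and on TPM, where the median change of all tested IDs was 0.17 and 0.35 log2 units, 22 and 23 members were higher, against 26.0% and 30.0% of tested IDs, and 17 and 13 lower, against 14.6% and 11.8%.

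The largest rises among members called higher on lignosulfonate were those of yc1106_01888, yc1106_03862 and yc1106_04469. yc1106_01888 rose by 9.64 log2 units (SE 0.18 by limma, adjusted p = 3.17e-15) from the levels given above. yc1106_03862 was listed at 0, 0 and 2.20 scaled FPKM on glucose and at 334, 259.6 and 287 on lignosulfonate. It passed the test with a wider error (limma log2 change 7.64 ± 0.39 SE, adjusted p = 2.17e-10), and a pseudocount of 0.1 in place of 1 gave 10.004. yc1106_04469 had 5.27, 5.05 and 4.49 on glucose, far below its lignosulfonate libraries (limma log2 change 7.05 ± 0.16 SE, adjusted p = 2.53e-14). The groups did not overlap in any of the 3 genes. Among members already described, yc1106_08785, yc1106_07096 and yc1106_00707 rose by 4.05, 2.19 and 3.64 log2 units.

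The largest falls were those of yc1106_07477, yc1106_02220 and yc1106_08146, 3 genes with high levels on glucose. yc1106_07477 had 642, 755 and 729 scaled FPKM on glucose and 5.07, 4.70 and 4.29 on lignosulfonate (limma log2 change -6.96 ± 0.17 SE, adjusted p = 5.21e-14). On lignosulfonate it was further lower in Δtah-1, at 0.768, 0.585 and 1.53, and higher in ΔCclaeA, at 11.8, 13.9 and 12.96, all far below the glucose libraries. yc1106_02220 had 747, 745 and 1142 on glucose and 16.1, 12.45 and 25.5 on lignosulfonate (limma log2 change -5.56 ± 0.23 SE, adjusted p = 2.11e-11). yc1106_08146, the most abundant member on glucose, had 6265, 6044 and 5283 there and 231, 248 and 257 on lignosulfonate (limma log2 change -4.57 ± 0.11 SE, adjusted p = 4.35e-14). In each of the 3 genes every glucose library lay above every ΔCclaeA library.

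**Figure D3:**
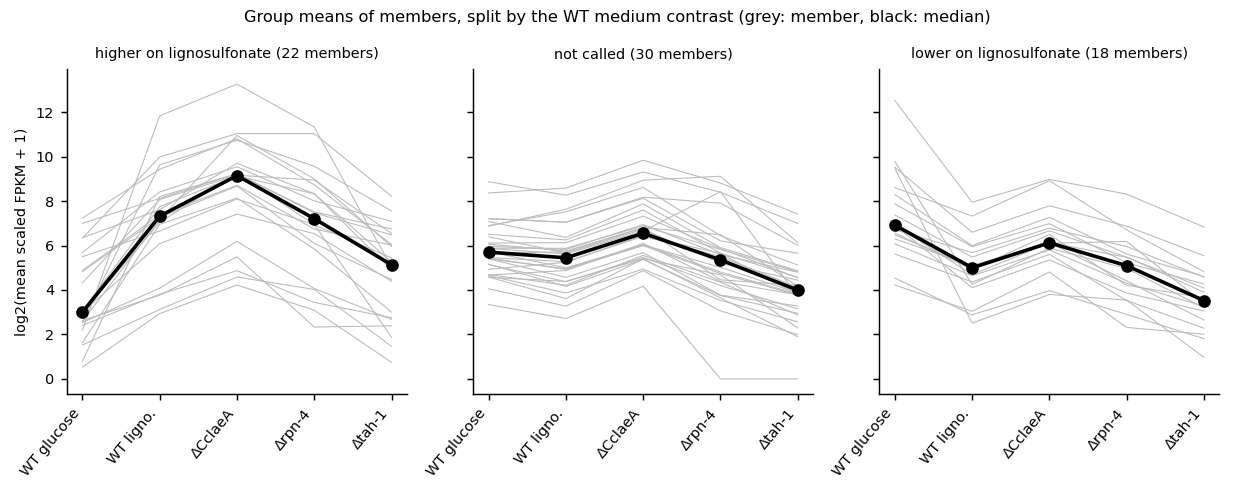
Group means of the members as log2(mean scaled FPKM + 1), split by their call in the WT medium contrast into 22 higher, 30 not called and 18 lower on lignosulfonate. Grey lines are members and black lines medians. By median, ΔCclaeA is the highest and Δtah-1 the lowest lignosulfonate group in every panel, as the choice of members required relative to WT, while the glucose level moves from lowest to highest across panels.

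The members were then split by this call. The median ΔCclaeA difference was 1.35 log2 units in the 22 genes higher on lignosulfonate, 1.12 in the 30 not called and 1.21 in the 18 lower ones. The median Δtah-1 difference was -1.67, -1.29 and -1.33. Of the 15 members at least 2 units lower in Δtah-1, 9 were among the 22, and 3 were in each of the other classes. These differences share the WT libraries with the split and were not tested.

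The levels of each class are given as a description, since the choice of members and the split together fix much of their order. In the 22 genes higher on lignosulfonate, the median scaled FPKM was 6.999 on glucose, 159 in WT on lignosulfonate, 565 in ΔCclaeA and 34.3 in Δtah-1, and the Δtah-1 mean stayed above the glucose mean in 14 and lay below it in 8. In the 18 genes lower on lignosulfonate the corresponding medians were 119.8, 31.0, 68.7 and 10.5. There the ΔCclaeA mean lay between the WT means of the 2 media in 15 genes and above both in 3.

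The second contrast asked whether loss of rpn-4 moved the same genes. It too shares the WT lignosulfonate libraries with the rule. In Δrpn-4, 6 of the 70 members were higher than in WT (8.57%, against 9.71% of all tested IDs) and 5 were lower (7.14%, against 3.21%), and 59 were not called. The median log2 change was -0.15 over the members and -0.01 over tested IDs. With no minimum fold change 16 were higher, against 25.1% of tested IDs, and 18 lower, against 21.8%. All 3 Δrpn-4 libraries lay above all 3 WT libraries in 22 members and below them in 30, as in 32.9% and 30.2% of tested IDs. Among the 51 members that met the limits without Δtah-1 replicate 2, 5 were higher and 5 lower (9.80% each). The Δrpn-4 mean was within 1 log2 unit of WT in 58 members, which by the choice of members places it between those of Δtah-1 and ΔCclaeA. It was at or above the ΔCclaeA mean in 3, and in 2, yc1106_06559 and yc1106_07218, at or below the Δtah-1 mean.

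**Figure D4:**
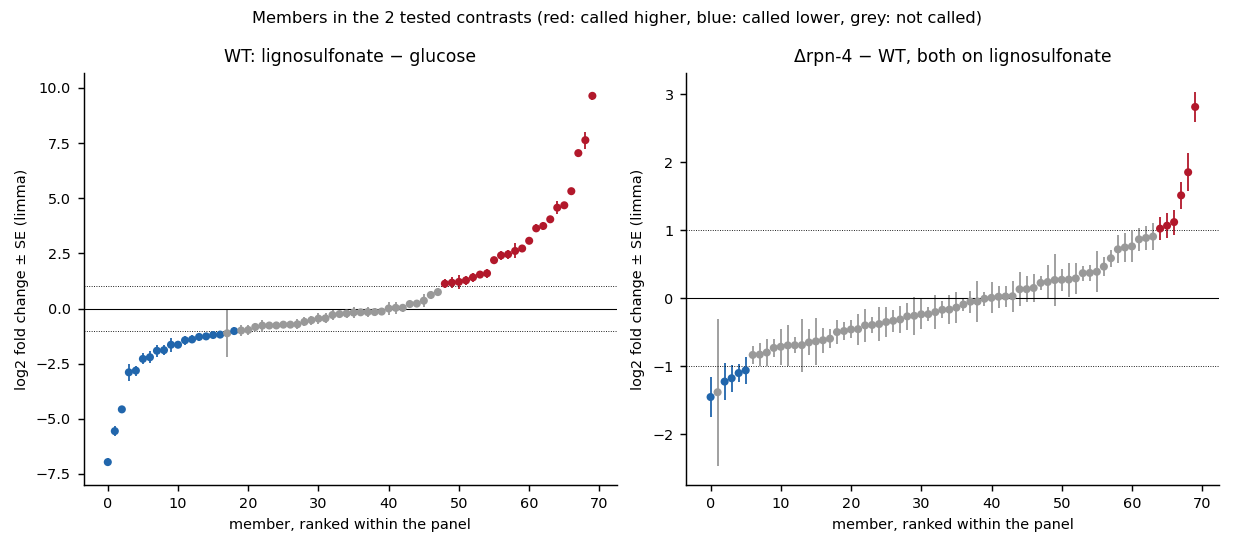
Log2 fold changes ± SE from limma for the 70 members, ranked within each panel, for WT on lignosulfonate minus glucose (left) and Δrpn-4 minus WT on lignosulfonate (right). Dotted lines mark 2-fold changes, red points were called higher (22 and 6) and blue points lower (18 and 5). The wide bar of an uncalled point in each panel is yc1106_07218.

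yc1106_03924 rose most in Δrpn-4. It had 45.9, 57.9 and 41.0 scaled FPKM in WT and 312, 365 and 349 in Δrpn-4 (limma log2 change 2.81 ± 0.22 SE, adjusted p = 2.21e-07). Its ΔCclaeA libraries, at 107, 96.8 and 94.7, lay between, and its Δtah-1 libraries, at 16.5, 8.32 and 11.9, below all others. It was one of 3 members whose Δrpn-4 mean was above the ΔCclaeA mean, with yc1106_02247 and yc1106_09991.

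yc1106_03881 had 130.2, 131 and 163 in WT, 529, 482 and 521 in Δrpn-4 (limma log2 change 1.85 ± 0.28 SE, adjusted p = 0.000114) and 1968, 2056 and 1895 in ΔCclaeA. The latter is the largest ΔCclaeA level relative to WT in the set, at 13.9 times the WT mean. Its Δtah-1 libraries were at 74.3, 28.8 and 80.5, and its glucose libraries between 3.84 and 6.09. yc1106_02247 had 180.1, 158 and 254 in WT and 577, 522 and 559 in Δrpn-4 (limma log2 change 1.51 ± 0.20 SE, adjusted p = 3.04e-05). In both genes the Δrpn-4 libraries lay above all WT libraries. The other 3 members called higher, yc1106_09991, yc1106_00707 and yc1106_07477, rose by 1.12, 1.07 and 1.02 log2 units. The call of yc1106_00707 was lost without WT on lignosulfonate replicate 1 (0.99), and that of yc1106_07477 without Δrpn-4 replicate 1 (0.88) or WT on lignosulfonate replicate 3 (0.97).

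The largest falls among members called lower in Δrpn-4 were smaller. Apart from these, yc1106_07218 had a log2 change of -1.38 with an SE of 1.08 and was not called. yc1106_06559 had 11.0, 14.8 and 12.1 in WT and 2.69, 4.999 and 4.44 in Δrpn-4 (limma log2 change -1.45 ± 0.30 SE, adjusted p = 0.00129). Its Δtah-1 libraries, at 4.93, 2.12 and 5.65, overlapped those of Δrpn-4, and its ΔCclaeA libraries, at 44.6, 41.1 and 46.0, lay above all others. yc1106_09004 had 48.7, 64.3 and 40.6 in WT and 19.2, 21.7 and 21.9 in Δrpn-4 (limma log2 change -1.23 ± 0.27 SE, adjusted p = 0.00219). yc1106_02783 had 145, 166 and 147 in WT and 54.7, 76.2 and 71.3 in Δrpn-4 (limma log2 change -1.18 ± 0.20 SE, adjusted p = 0.000277). WT and Δrpn-4 did not overlap in these genes. yc1106_01887 and yc1106_08948 fell by 1.10 and 1.06 log2 units.

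These Δrpn-4 counts hold for scaled values. On unscaled FPKM 1 member was higher (against 2.90% of tested IDs) and 31 were lower (against 34.9%), around a median log2 change of -0.788 over all tested IDs. On TPM 1 was higher, against 2.39%, and 38 lower, against 45.1%. yc1106_03924 was the member called higher under all 3 scalings, at 1.80 on TPM, and the 3 named falls kept their calls.

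Some members adjoin in the ID numbering. Whether that numbering follows the genome was not checked, as no annotation was used here. These groups were picked after their values were seen. Of the 70 members, 10 (14.3%) had another member as a direct neighbour, in 5 pairs, whereas 1.38% of all IDs had a member next to them, and no run of 3 or more members at most 2 numbers apart was found. The pairs were yc1106_01887 with yc1106_01888, yc1106_06559 with yc1106_06560, yc1106_06787 with yc1106_06788, yc1106_07095 with yc1106_07096, and yc1106_08740 with yc1106_08741. Of the 130 non-members next to a member, 10 (7.69%) met the ΔCclaeA limit and 15 (11.5%) the Δtah-1 limit, against 4.10% and 7.80% of all IDs. The shares of all IDs include the 70 members, which met both limits by the rule, so the sets compared are unlike. The counts of 10 and 15 both include 2 genes that met both limits and were left out only as switched between the media.

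The first of these pairs lies inside a longer stretch. Of the 7 genes left out as switched between the media, yc1106_01886, yc1106_01889 and yc1106_01890 flank it, so that 5 consecutive IDs met both limits. yc1106_01886 had 21.5 ± 3.40 scaled FPKM in WT on lignosulfonate, 63.8 ± 2.69 in ΔCclaeA and 0.328 ± 0.125 in Δtah-1, and was listed at 0 in all 3 glucose libraries. yc1106_01889 had 283 ± 12.2, 592 ± 20.5 and 1.87 ± 0.950, and yc1106_01887 had 123 ± 18.4, 279 ± 14.7 and 7.02 ± 0.948. The direction in both mutants is what picked out these IDs, while their WT level on lignosulfonate ranged widely, up to that of yc1106_01888.

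The 2 IDs after the stretch went the other way, and the next, yc1106_01893, was lower than WT in both mutants (5.67 ± 2.32 in WT, 2.13 ± 0.573 in ΔCclaeA and 2.77 ± 0.855 in Δtah-1). yc1106_01891 had 4.65 ± 1.62 scaled FPKM in WT, 1.71 ± 0.340 in ΔCclaeA and 14.3 ± 2.27 in Δtah-1, and yc1106_01892 had 3.16 ± 0.370, 1.54 ± 0.123 and 10.2 ± 2.89. Before the stretch, yc1106_01884 was higher than WT in both mutants, with 1.217 ± 0.037 in WT, 3.845 ± 0.482 in ΔCclaeA and 21.77 ± 6.78 in Δtah-1. yc1106_01885 was under 1 scaled FPKM in each of these groups (0.262 ± 0.122, 0.742 ± 0.093 and 0.945 ± 0.587). yc1106_01883 had 1.03 ± 0.347 in WT, 0.094 ± 0.110 in ΔCclaeA and 280.1 ± 160.0 in Δtah-1. yc1106_01881, a member 5 numbers before yc1106_01886, had 13.1 ± 3.48 in WT, 28.2 ± 3.87 in ΔCclaeA and 5.74 ± 0.949 in Δtah-1. A further pair of switched genes, yc1106_01870 and yc1106_01871, shared the members' directions, with 31.5 and 30.4 scaled FPKM in WT, 93.9 and 69.6 in ΔCclaeA and 11.8 and 5.06 in Δtah-1.

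**Figure D5:**
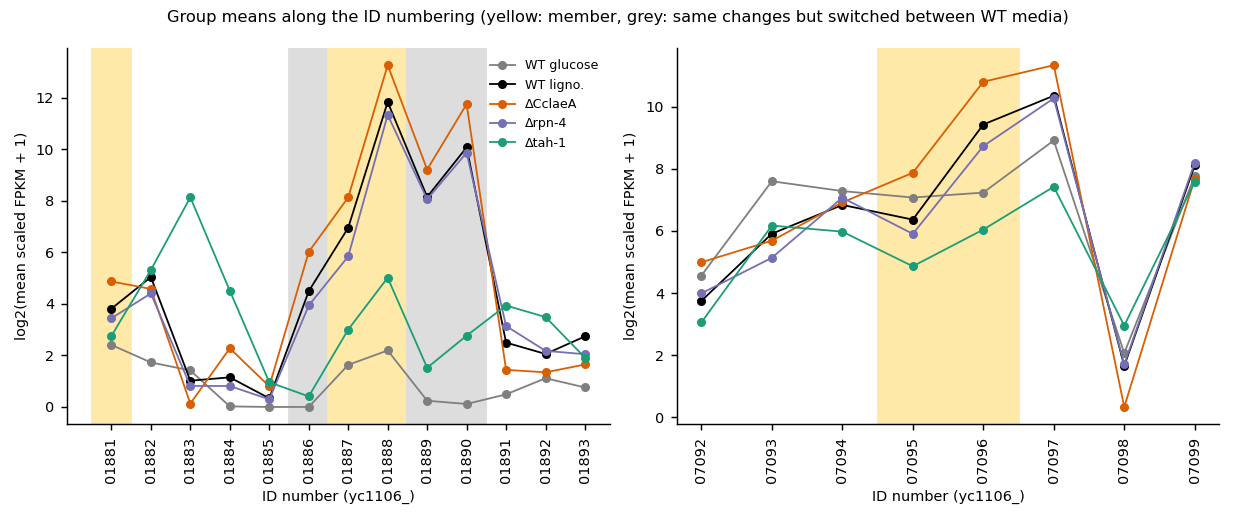
Group means as log2(mean scaled FPKM + 1) along consecutive IDs around yc1106_01888 (left) and yc1106_07096 (right). Yellow marks members and grey marks genes that met both change limits but were switched between the WT media. From 01886 to 01890 ΔCclaeA is above and Δtah-1 below WT on lignosulfonate at every ID, and at 01891 and 01892 the order is the reverse.

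A shorter stretch surrounds yc1106_07096. yc1106_07095 had 81.4 ± 7.94 scaled FPKM in WT on lignosulfonate, 233 ± 23.2 in ΔCclaeA and 28.1 ± 11.4 in Δtah-1, and yc1106_07096 had 687 ± 56.9, 1782 ± 152 and 65.0 ± 2.72. The next ID, yc1106_07097, was the more abundant, with 1306 ± 148, 2581 ± 108 and 171 ± 35.5, and missed the ΔCclaeA limit at 0.98. On glucose these 3 genes had 134 ± 9.75, 149.6 ± 16.6 and 481 ± 65.2, so that the first was above and the other 2 below their level in WT on lignosulfonate. yc1106_07098 was lower in ΔCclaeA (0.263 ± 0.134) and higher in Δtah-1 (6.75 ± 1.37) than in WT (2.15 ± 0.420).

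Members yc1106_00604 and yc1106_00608 and the switched gene yc1106_00610 lie near each other in the numbering. yc1106_00604 had 383 ± 30.1 scaled FPKM in WT on lignosulfonate, 912 ± 23.2 in ΔCclaeA and 169.6 ± 4.95 in Δtah-1, and yc1106_00608 had 214 ± 29.4, 558 ± 11.1 and 29.0 ± 4.40. The switched gene yc1106_00610 had 167 ± 9.27, 541 ± 38.7 and 60.3 ± 11.8. Of the 3 IDs between the members, yc1106_00605 had the opposite order, with 151 ± 18.9, 69.8 ± 5.14 and 577 ± 34.1. yc1106_00606 was higher than WT in both mutants, with 14.6 ± 0.327, 17.8 ± 0.703 and 40.6 ± 5.47, and yc1106_00607 had the members' order, with 28.4 ± 4.92, 66.4 ± 6.96 and 18.1 ± 6.79, but was short of the Δtah-1 limit at -0.63.

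The other pairs were of lower or mixed abundance. yc1106_08741 had 339 ± 32.5 scaled FPKM in WT, 745 ± 14.3 in ΔCclaeA and 135 ± 11.2 in Δtah-1, beside the values of yc1106_08740 above, and both rose on lignosulfonate against glucose. yc1106_06787 and yc1106_06788 were both lower on lignosulfonate, by 1.44 and 1.26 log2 units. yc1106_06560 had 165 ± 37.1 in WT, 417 ± 58.6 in ΔCclaeA and 63.9 ± 22.4 in Δtah-1, and rose on lignosulfonate. So did yc1106_06559, a call lost without WT on glucose replicate 3 (0.88).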

How the data were processed

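The authors deposited 1 FPKM value per gene ID and library, per the file headers of the 6 WT libraries, and the 9 mutant headers name no unit. RSEM 1.3.3, HISAT2 2.1.0, fastp 0.19.5 and DESeq2 appear in the submitters' processing notes with no role, and the genome build is not given in the sources used in this work. Here FPKM were divided by median-of-ratios size factors from 8858 IDs above 0 in all 15 libraries. limma 3.58.1 (R 4.3.3, trend and robust) was fitted to log2(scaled FPKM + 1) of 9265 IDs in all 15 libraries, a scale that understates changes of low genes. The error of each gene is shared by all groups, so the SE and p-values of both contrasts also carry the spread within Δtah-1. The fitting steps were also run on simulated data with the same spread in all groups, whereas the groups here differ in spread. Adjusted p-values cover all IDs tested. Lists of genes by function were not tested, because no annotation was used here. Relative depths come from values between 0.08 and 0.6 FPKM, and 90.5% of 105 library pairs fitted them within 0.05 log2 units. Named members were those of fixed ranks (4 by the smaller change, 4 by WT level, 3 rises and 3 falls among those called per tested contrast, and those at the limits), and any other was chosen after its values were seen. The members, lists and tests were chosen with earlier results of these data known. At most 1.5% of values were identical between replicate libraries. Alternatives are given in the closing section. Python 3.11.15, NumPy 2.4.6, pandas 2.3.3 and matplotlib 3.10.9 were used.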

Additional observations from a re-analysis of the deposited data

How the results depend on the processing

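The number of genes meeting the limits ran from 53 to 89 when 1 library was left out, and was 96 on unscaled FPKM, 95 on TPM, 90 with a pseudocount of 0.1 and 77 without the exclusion of switched genes. In Δrpn-4, 16 members were higher and 18 lower with no minimum fold change, 1 and 31 on unscaled FPKM, and 1 and 38 on TPM. These scalings put the median change of all tested IDs at -0.788 and -0.9315 log2 units. With no minimum fold change 29 members were lower on lignosulfonate than on glucose. Leaving out a library gave 5 to 7 higher and 4 to 5 lower members in Δrpn-4, and 21 to 22 higher and 18 to 21 lower on lignosulfonate. Without Δtah-1 replicate 2, an alternative added after seeing the data, the counts were 6, 5, 22 and 18. Among the 51 members that still met the limits without that library, 5 were higher and 5 lower in Δrpn-4, and 19 higher and 11 lower on lignosulfonate. A fit of only the 6 libraries compared, which leaves the Δtah-1 spread out, gave 6, 5, 22 and 18 as well. Its limma adjusted p-values in Δrpn-4 moved both ways. That of yc1106_03862 went from 0.162 to 0.00296 and that of yc1106_03924 from 2.21e-07 to 3.3e-06. The replicate number as a block (replicate block) also gave 6, 5, 22 and 18. Whether the replicate numbers pair the libraries is not settled. Deviations of same-numbered libraries correlated at 0.06, 0.28 and 0.03 between Δrpn-4 and WT and at 0.00, 0.45 and 0.51 between the WT media. Replicates 2 and 3 correlated best with their own number in both comparisons, and replicate 1 in neither.

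Of 588 values of named members under alternatives, 22 changed sign, all of them for members not called in that contrast. A call was lost in 14 and gained with the same sign in 28, the alternative with no minimum fold change included. In Δrpn-4 against WT the log2 changes became -0.14 (yc1106_08740), -0.76 (yc1106_07491), -0.0655 (yc1106_02220), -0.49 (yc1106_08146) and -0.47 (yc1106_01518) on unscaled FPKM, and -0.30, -0.90, -0.21, -0.65 and -0.62 on TPM. Leaving out a library gave -0.0699 to 0.15 for yc1106_07491, -0.16 to 0.079 for yc1106_04469 and -0.10 to 0.0256 for yc1106_03858. Between the media yc1106_00555 became 0.0439 on unscaled FPKM and 0.24 on TPM, and yc1106_03924 became 0.15 on TPM. Leaving out a library gave -0.17 to 0.18 for yc1106_09004 and -0.0832 to 0.11 for yc1106_03858. FPKM give no read numbers, so counting error at low levels was not estimated.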
